A study of Mus musculus with 12 samples.

Results

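The axon guidance genes are the ligands and receptors of 4 cell signalling systems: semaphorins with plexins and neuropilins, ephrins with Eph receptors, slits with robos, and netrins with Unc5 receptors. They were chosen by symbol from the genes annotated on the array (Sema, Plxn, Nrp1 and Nrp2, Epha, Ephb, Efna, Efnb, Slit1 to Slit3, Robo1 to Robo4, Ntn and Unc5a to Unc5d), which gave 65 of 17097 genes. Each gene was read from its brightest probe set on average. A further 3 symbols of the rule (Efna3, Ephb2 and Slit3) had no probe set that named only that gene and were not analysed here. These ligands were named for steering growing axons, and outside the nervous system they act in vessel growth, cell sorting and migration. Secreted class 3 semaphorins signal through plexins with neuropilins as co-receptors, whereas most other semaphorins are membrane-bound and bind plexins directly. Ephrins are tethered to the cell surface and signal with Eph receptors in both directions, slits bind robos, and netrins bind Dcc, Neo1 and the Unc5 receptors.

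RNA came from lung fibroblasts of mice carrying a GFP reporter of Pdgfra, sorted after dispase digestion into GFP-bright and GFP-dim subsets (2000 cells of each), 5 days after surgery. The 6 groups of 2 arrays were bright and dim cells after partial pneumonectomy in mice expressing dominant-negative FGFR2 (PNX-dnFGFR), after pneumonectomy alone (PNX), and after a sham operation (SHAM), which per the study's design is not followed by regeneration of alveolar septa. All groups carry the reporter. The labels call the replicates biological. The promoter of the dominant-negative receptor, the age of the animals, and whether a replicate is 1 animal or a pool are not stated there. The p-values therefore measure the spread between these samples, which need not be that between animals.

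The gate labels were checked first. Pdgfra itself went against them: its level ran from 4.84 to 5.54 log2 on the bright arrays and from 6.66 to 7.13 log2 on the dim arrays, 1.75 ± 0.10 log2 lower in bright (adjusted p = 9.92e-07; here and below ± on a difference is the standard error of limma's fit). The groups are therefore called bright and dim as labelled. Of the 12 fibroblast markers 8 were higher and 4 lower in bright, and Col1a1 (type I collagen) lay between 12.29 and 12.46 log2 on bright arrays and between 11.82 and 12.12 log2 on dim arrays. Fgfr2 ran from 8.5 to 9.39 log2 in bright and from 7.09 to 8.45 log2 in dim. Whether its probe set also reads the dominant-negative transcript was not tested. Epithelial Sftpc and the macrophage gene Lyz2 were high in both subsets (11.36 to 12.06 and 9.77 to 10.57 log2 on bright arrays, 11.58 to 12.43 and 10.06 to 11.31 log2 on dim arrays). Arrays of a group correlated at 0.953 to 0.976, arrays of different subsets at 0.787 to 0.893.

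Of the 65 genes 48 passed the filter, a level above 5.101 log2, the median signal, on 2 or more arrays, and 30 exceeded it on all 12. The other 17 did not pass: Efnb3, Epha2, Epha5, Epha6, Epha7, Epha8, Epha10, Ephb1, Plxnb1, Plxnb3, Robo3, Robo4, Sema3a, Sema3e, Sema4c, Sema7a and Unc5d lay between 2.34 and 5.22 log2. These are the levels of the probe set that stood for each gene. A second probe set of Sema3a and one of Plxnb1 did pass, that of Plxnb1 with 4.49 to 5.38 log2 in bright and 3.06 to 4.99 log2 in dim, which overlap (1.38 ± 0.20 log2 higher in bright, adjusted p = 0.000379 with probe sets tested separately). All levels are log2 RMA signals, which order samples for 1 gene but not genes against each other. Ranges follow for 1 gene of each family, that with the brightest probe set, which does not order the genes by expression: Nrp1 (8.90 to 10.90 log2 over the 12 arrays), Plxnb2 (8.83 to 9.25), Sema5a (8.41 to 9.56), Slit2 (7.24 to 9.45), Robo1 (7.08 to 9.28), Sema3c (5.98 to 10.05), Epha3 (7.09 to 8.65), Ephb4 (7.23 to 8.07), Unc5c (4.85 to 8.42), Efna5 (5.19 to 9.10), Efnb1 (6.44 to 7.72) and Ntn1 (4.99 to 8.59).

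The bright and dim subsets differed widely in these genes. Taken as the mean over the 3 conditions, 33 of the 48 tested genes differed at an adjusted p below 0.05, 19 higher and 14 lower in bright (68.8%). Among all 11073 genes tested the share was 47.8%, with 28.5% higher and 19.3% lower. The median size of the difference was 0.90 log2 over the guidance genes and 0.30 log2 over all genes. Ligands and receptors divided: 15 of 28 ligands were higher and 3 lower in bright, whereas 4 of 20 receptors were higher and 11 lower. The median difference was 0.53 log2 over the ligands and -0.51 log2 over the receptors. In these bulk samples fewer cells of a type and less RNA per cell cannot be told apart.

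**Figure D1:**
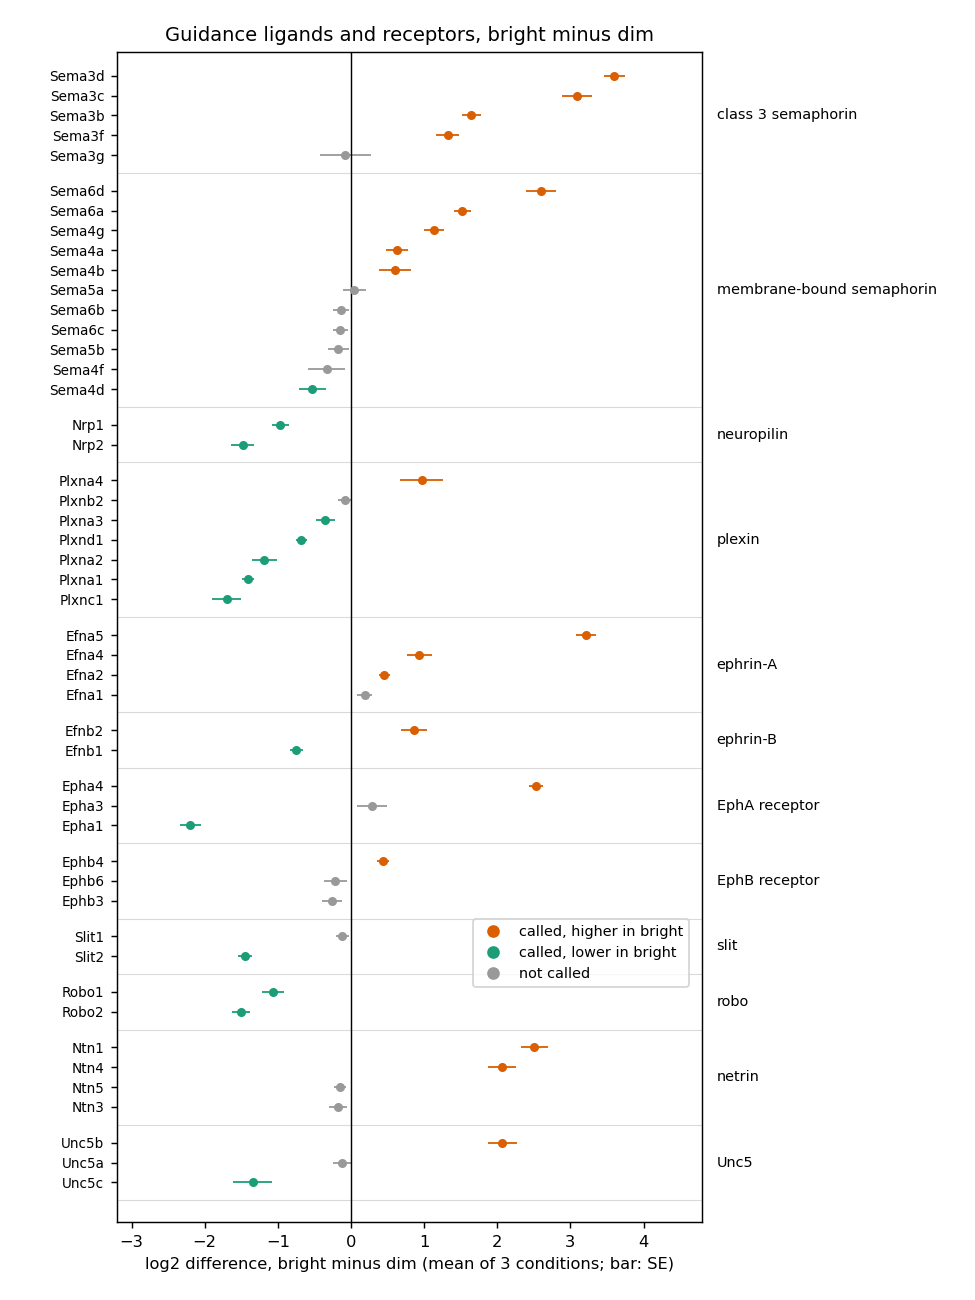
Log2 difference between bright and dim cells (x axis, mean of 3 conditions; bars are standard errors) for the 48 guidance genes tested, ordered by family down the page. Orange points were higher in bright and green points lower (adjusted p below 0.05), and grey points were not called. All 4 called class 3 semaphorins lie right of 0, both neuropilins and 5 of 6 called plexins left of it.

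Among the ligands, 4 of 5 tested class 3 semaphorins were higher in bright. Sema3d, a secreted semaphorin, lay between 5.86 and 7.30 log2 (median 6.49) in bright and between 2.66 and 3.12 log2 (median 2.88) in dim. No arrays overlapped, and the dim arrays were all below the filter level. The difference was 3.60 ± 0.14 log2 (adjusted p = 1.72e-07), and 1.36 log2 with dim values held at the filter level. Sema3c, which is needed for outflow tract septation in mice, lay between 9.07 and 10.05 log2 (median 9.57) in bright and between 5.98 and 6.90 log2 (median 6.49) in dim, a difference of 3.09 ± 0.20 log2 (adjusted p = 2.63e-06) again without overlap. Sema3b was 1.64 ± 0.13 log2 higher (7.22 to 7.60 in bright, 5.43 to 6.18 in dim). The size depended on the probe set: further passing ones gave 0.646 and 0.915 log2 for Sema3b, 2.505 for Sema3d and 3.615 for Sema3c. Sema3f, a ligand of Nrp2, was 1.32 ± 0.16 log2 higher on average, but its arrays overlapped (5.89 to 8.08 in bright, 5.36 to 5.99 in dim). Its difference was 2.44 log2 in PNX-dnFGFR, 1.19 in PNX and 0.34 in SHAM.

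Of 11 tested membrane-bound semaphorins 5 were higher and 1 lower in bright. Sema6d lay between 5.86 and 6.91 log2 (median 6.69) in bright and between 3.57 and 4.35 log2 (median 3.87) in dim, 2.60 ± 0.20 log2 higher, or 1.41 log2 with values held at the filter level. Sema6a, a class 6 semaphorin that signals through A-type plexins, lay between 7.47 and 8.52 log2 (median 7.61) in bright and between 5.85 and 6.69 log2 (median 6.42) in dim, 1.52 ± 0.12 log2 higher (adjusted p = 7.94e-06). Neither overlapped. Sema4g was 1.13 ± 0.14 log2 higher, or 0.41 log2 when held. Sema4a and Sema4b were called in the mean (0.63 ± 0.15 and 0.60 ± 0.22 log2) with overlapping arrays. Bright minus dim was 2.20 log2 in PNX-dnFGFR, 0.29 log2 in PNX and -0.59 log2 in SHAM for Sema4a, and 1.56, 0.29 and -0.05 log2 in the same order for Sema4b, so for both the mean came mostly from PNX-dnFGFR. Sema4d (the ligand of Plxnb1) was 0.53 ± 0.19 log2 lower. With held values Sema4b and Sema4d no longer passed (adjusted p = 0.054 and 0.0709), and of the 12 fits that left out 1 array 10 lost the call of Sema4b and 7 that of Sema4d.

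The receptors of these ligands were mostly lower in bright. Both neuropilins fell: Nrp2 lay between 6.59 and 8.56 log2 (median 8.02) in bright and between 9.03 and 9.50 log2 (median 9.32) in dim, and Nrp1 between 8.90 and 10.21 log2 (median 10.02) in bright and between 10.49 and 10.90 log2 (median 10.78) in dim. Neither overlapped between subsets, and the differences were -1.48 ± 0.16 and -0.96 ± 0.12 log2 (adjusted p = 6.57e-05 and 0.000133). For Nrp1 the difference was -1.658 log2 in PNX-dnFGFR, -0.771 in PNX and -0.465 in SHAM, where it was not called. Of 7 tested plexins 5 were lower in bright and 1 higher. Plxnc1, the receptor of Sema7a, was lower by 1.70 ± 0.20 log2, with 5.76 to 7.56 log2 in bright and 8.30 to 8.69 log2 in dim. Plxna1 was lower by 1.41 ± 0.09 log2 (7.93 to 8.50 in bright, 9.49 to 9.71 in dim) and Plxna2 by 1.18 ± 0.18 log2 (5.37 to 6.51 in bright, 7.05 to 7.53 in dim). Plxnd1, the receptor of Sema3e, was lower by 0.68 ± 0.08 log2 and Plxna3 by 0.35 ± 0.13 log2. The call of Plxna3 was lost in 10 of the 12 fits that left out 1 array and without the filter (adjusted p = 0.0538). Plxna4 was the exception, 0.97 ± 0.29 log2 higher in bright (0.58 log2 when held) with overlapping arrays (2.16 log2 in PNX-dnFGFR, 0.71 in PNX and 0.03 in SHAM). It exceeded the filter level on 3 arrays, all bright, and lost its call in 5 of the 12 fits that left out 1 array. Plxnb2 lay within 0.08 log2 of the dim mean.

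In the ephrin system 3 of 4 tested ephrin-A ligands were higher in bright. Efna5 lay between 8.33 and 9.10 log2 (median 8.89) in bright and between 5.19 and 6.13 log2 (median 5.55) in dim, with no overlap, and was 3.21 ± 0.14 log2 higher (adjusted p = 2.45e-07). Efna4 rested on values around the filter level: its difference of 0.93 log2 became 0.06 log2 (adjusted p = 0.377) when low values were held there. Efnb2 was higher (0.86 ± 0.17 log2 in the mean, with 1.67 log2 in PNX-dnFGFR, 0.73 in PNX and 0.18 in SHAM) and Efnb1 lower (-0.75 ± 0.09 log2). Among the receptors Epha4, which binds ephrins of both classes, lay between 6.44 and 7.86 log2 (median 6.84) in bright and between 4.29 and 4.68 log2 (median 4.57) in dim, 2.53 ± 0.10 log2 higher (adjusted p = 1.41e-07). Its dim arrays were all below the filter level, and with held values the difference was 1.97 log2. Epha1 went the other way, with 6.16 to 6.85 log2 (median 6.73) in bright and 8.50 to 9.10 log2 (median 9.01) in dim, 2.20 ± 0.14 log2 lower (adjusted p = 2.71e-06). Ephb4, the receptor of ephrin-B2 in vessels, was 0.44 ± 0.08 log2 higher, and Epha3 was not called (0.29 log2, adjusted p = 0.273).

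No slit or robo was called higher in bright. Slit2 lay between 7.24 and 8.17 log2 (median 7.92) in bright and between 9.02 and 9.45 log2 (median 9.27) in dim, lower by 1.45 ± 0.09 log2 (adjusted p = 2.62e-06), while Slit1 was not called. The receptors Robo1 (-1.06 ± 0.15 log2) and Robo2 (-1.50 ± 0.12 log2) were also lower. For Robo1 arrays overlapped, and the difference was -1.83 log2 in PNX-dnFGFR, -1.06 in PNX and -0.30 in SHAM. Robo2 was below the filter level on every bright array (3.66 to 4.99 log2, against 5.07 to 6.48 log2 in dim). With values held at that level its difference was -0.71 log2. Without holding, it was -2.21 log2 in PNX-dnFGFR, -1.63 in PNX and -0.66 in SHAM, where it was not called.

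Both called netrins were higher in bright. Ntn1 lay between 7.34 and 8.59 log2 (median 8.27) in bright and between 4.99 and 6.26 log2 (median 5.51) in dim, 2.51 ± 0.18 log2 higher, and Ntn4, a basement membrane netrin, between 6.73 and 8.06 log2 (median 7.62) in bright and between 5.04 and 6.03 log2 (median 5.28) in dim, 2.06 ± 0.19 log2 higher. A further passing probe set of Ntn1 gave 1.231 log2. The Unc5 receptors split. Unc5b was 2.07 ± 0.20 log2 higher (6.20 to 7.89 in bright, 4.35 to 5.79 in dim), and Unc5a was not called. Unc5c was 1.35 ± 0.27 log2 lower (4.85 to 7.37 in bright, 7.64 to 8.42 in dim), and its further probe set gave -1.417 log2. For Unc5c the difference was -2.18 log2 in PNX-dnFGFR, -1.16 in PNX and -0.70 in SHAM, and only the first was called. Its bright PNX-dnFGFR arrays had 6.65 and 4.85 log2.

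**Figure D2:**
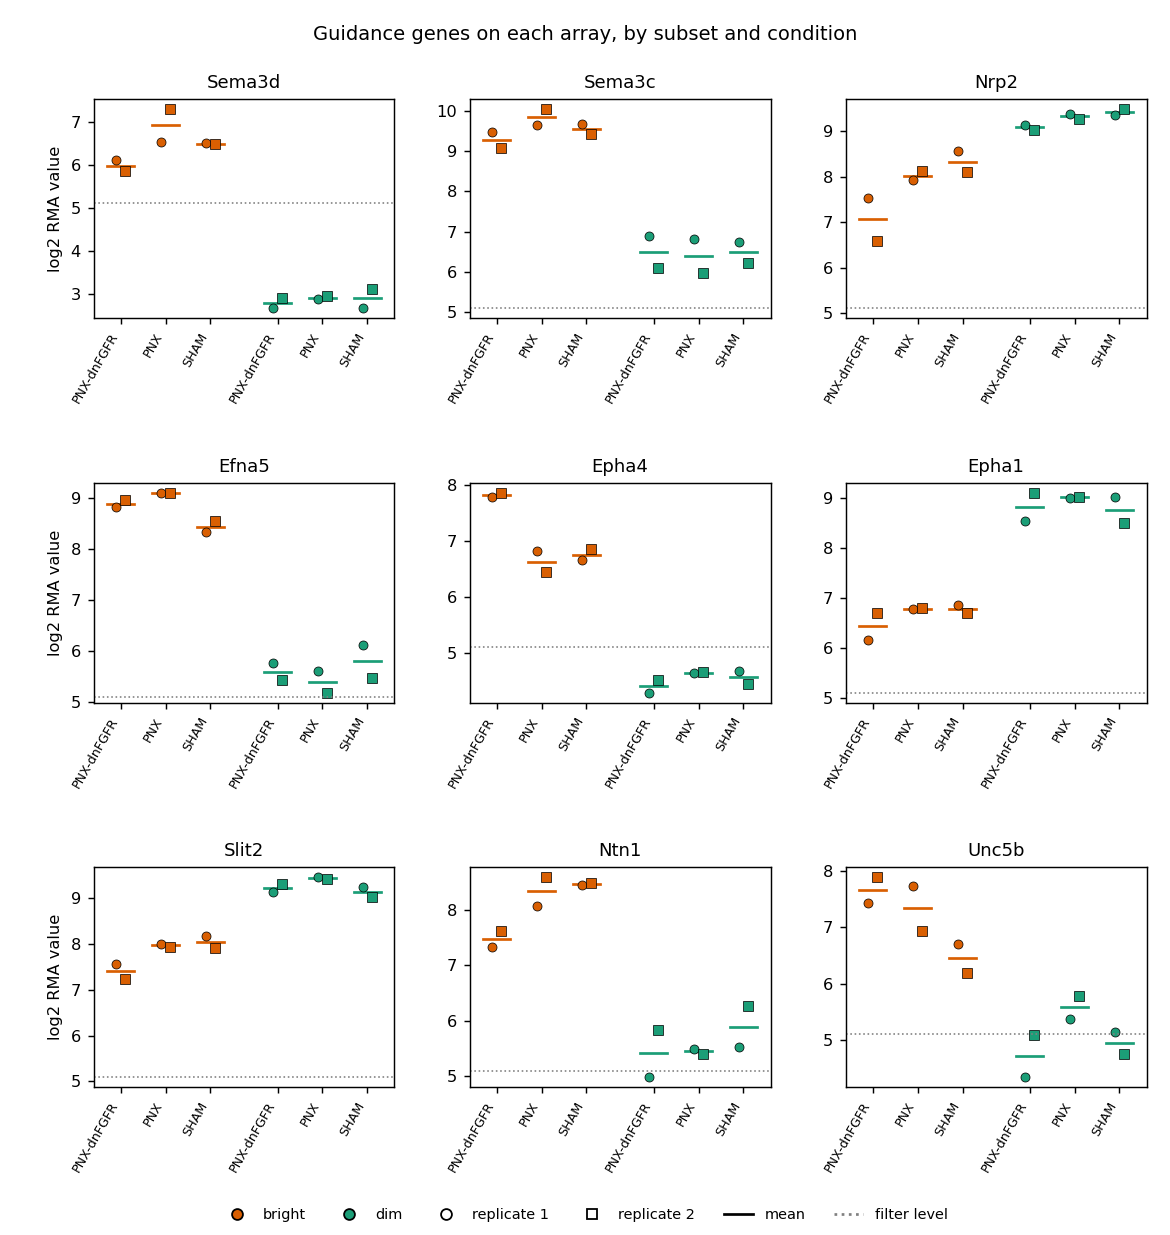
Log2 RMA value of 9 guidance genes on each array (circles replicate 1, squares replicate 2, short lines group means, dotted line filter level), with bright groups in orange left of dim groups in green. Sema3d, Sema3c, Efna5, Epha4, Ntn1 and Unc5b are higher on every bright array than on any dim array, and Nrp2, Epha1 and Slit2 are lower on every bright array.

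Many of these genes were also called within a condition. In PNX-dnFGFR cells 31 of 48 guidance genes differed between bright and dim (64.6%, against 34.4% of all genes), in PNX cells 23 (47.9%, against 18.4%) and in SHAM cells 21 (43.8%, against 19% of all genes). In all, 11 were higher in bright in each of the 3 conditions, namely Efna5, Epha4, Ntn1, Ntn4, Sema3b, Sema3c, Sema3d, Sema4g, Sema6a, Sema6d and Unc5b, and 8 were lower in each: Efnb1, Epha1, Nrp2, Plxna1, Plxna2, Plxnc1, Plxnd1 and Slit2. Some of these calls were lost under other settings. Sema4g, below the filter on every dim array, no longer passed with held values in SHAM (adjusted p = 0.115) or PNX (adjusted p = 0.47). A fixed block of condition and number, which pairs bright and dim arrays, was also fitted. With it Plxnd1 lost its call in SHAM (adjusted p = 0.0743) and PNX (0.0529). Plxnc1 lost its call in SHAM (0.0637), and Efnb1 in PNX (0.0574) and PNX-dnFGFR (0.0906). Plxnd1 in SHAM was also lost in 8 of the 12 fits that left out 1 array. Some of these fits also lost Plxna2 in each condition, Plxnc1 and Nrp2 in SHAM and PNX, Plxnd1 in PNX, and Efnb1 in PNX and PNX-dnFGFR. Of the genes higher in bright, some fits lost Sema4g in each condition, Unc5b in SHAM and PNX, and Ntn4 in PNX-dnFGFR. Further probe sets of some listed genes, tested separately in limma, kept the sign but missed the threshold. In SHAM these included Ntn1 (adjusted p = 0.0923), Sema3b (0.111), Nrp2 (0.057) and Epha1 (0.0524). In PNX they included Nrp2 (0.0996), Epha1 (0.0554), Plxna2 (0.14) and Efnb1 (0.464), and in PNX-dnFGFR Ntn1 (0.0942) and Efnb1 (0.369). Arrays did not overlap in any of the 3 conditions for 15 genes higher and 11 lower in bright, against 20% and 13.9% of all genes. The PNX count was 14 without replicate 2 of dim PNX.

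Markers of some other cells moved with the gate. Over all genes 28.5% were called higher and 19.3% lower in bright. Of 9 tested mesothelial markers 6 were higher in bright and 0 lower, their mean lying between 6.01 and 8.12 log2 on bright arrays and between 4.74 and 6.17 log2 on dim arrays. Of 7 tested pericyte and smooth muscle markers 4 were higher and 1 lower. The list mean was 6.06 to 6.39 log2 in bright and 4.96 to 5.28 log2 in dim. Pdgfrb, which is also among the fibroblast markers, lay at 8.88 to 9.30 log2 in bright and 5.51 to 6.35 log2 in dim. All 4 tested glia and neuron markers were higher (list mean 4.67 to 5.12 log2 in bright, 4.40 to 4.57 in dim), and 3 of 5 tested lymphocyte markers were lower (4.67 to 5.15 log2 in bright, 5.16 to 5.94 in dim). Of 12 tested endothelial markers 1 was higher and 5 lower in bright, 50% against the 47.8% of all genes. The epithelial list mean overlapped between subsets (6.66 to 7.95 log2 in bright, 6.59 to 7.81 in dim). So did that of the macrophage and dendritic markers (6.33 to 6.78 log2 in bright, 6.21 to 7.43 in dim). The part of any of these cells in the differences was not tested.

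Promoter sequences are shown for the ephrin pair Efna5 and Epha4, which were both higher in bright, and for the neuropilins, which were both lower. Promoter sequences from RefSeq (build GRCm38.p6) were at hand for 56 of the 65 genes. The 200 bases before the start follow, 5′ to 3′ on the gene's strand, with GC boxes (GGGCGG or its reverse complement CCGCCC) in capitals.
Efna5, chr17:62881318-62881517, minus strand: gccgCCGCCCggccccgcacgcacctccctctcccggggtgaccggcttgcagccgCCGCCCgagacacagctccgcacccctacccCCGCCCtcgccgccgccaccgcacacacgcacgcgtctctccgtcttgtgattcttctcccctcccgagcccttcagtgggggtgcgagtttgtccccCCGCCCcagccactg
Epha4, chr1:77515089-77515288, minus strand: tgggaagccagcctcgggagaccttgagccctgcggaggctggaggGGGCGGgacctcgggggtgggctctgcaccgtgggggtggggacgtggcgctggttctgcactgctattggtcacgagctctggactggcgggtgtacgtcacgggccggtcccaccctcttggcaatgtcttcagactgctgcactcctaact
Nrp2, chr1:62703117-62703316, plus strand: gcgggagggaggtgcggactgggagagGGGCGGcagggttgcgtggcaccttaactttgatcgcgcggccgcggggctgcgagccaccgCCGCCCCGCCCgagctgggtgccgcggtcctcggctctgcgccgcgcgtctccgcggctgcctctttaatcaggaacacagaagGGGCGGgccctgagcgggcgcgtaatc
Nrp1, chr8:128358873-128359072, plus strand: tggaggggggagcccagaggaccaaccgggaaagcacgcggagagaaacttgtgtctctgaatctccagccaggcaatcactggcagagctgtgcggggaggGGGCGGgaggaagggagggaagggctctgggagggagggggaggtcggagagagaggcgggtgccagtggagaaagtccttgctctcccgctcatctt
Efna5 and Nrp2 held 4 GC boxes each (a pair in Nrp2 overlaps) and Epha4 and Nrp1 held 1 each. G and C made up 74% of the bases in Efna5, 66.5% in Epha4, 73% in Nrp2 and 64% in Nrp1. A GC box stood in 50 of the 71 windows of guidance genes (70.4%; a gene can have several start sites) and in 31% of all 32851 windows of this length, searched on both strands. Efna5, higher in bright, and Nrp2, lower in bright, thus held the same number.

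Fewer guidance genes were called between conditions than between the gates. The comparisons of conditions use fewer arrays than the mean over all conditions, so these counts do not order the sizes of the effects. In bright cells 7 guidance genes differed between PNX-dnFGFR and SHAM (14.6%, against 5.2% of all genes, 2.6% in each direction). Sema4a, Sema3f, Sema6a and Epha4 rose, and Nrp1, Nrp2 and Plxnd1 fell. The 3 that rose beside Epha4 are semaphorins, and those that fell are both neuropilins and a plexin. This comparison shares its arrays with the bright and dim comparison. PNX-dnFGFR and SHAM differ in both the surgery and the receptor. No sham-operated group was labelled as expressing the receptor, so the effects of surgery and receptor cannot be told apart in this comparison.

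Sema4a, a membrane-bound semaphorin known from immune cells, had 8.34 and 8.18 log2 in bright PNX-dnFGFR, 6.31 and 6.47 log2 in bright PNX and 6.27 and 6.32 log2 in bright SHAM. Only the PNX-dnFGFR arrays stood apart, 1.96 ± 0.26 log2 above SHAM (adjusted p = 0.0103). Sema3f had 7.83 and 8.08 log2 in bright PNX-dnFGFR, 7.43 and 6.65 log2 in bright PNX and 6.34 and 5.89 log2 in bright SHAM, with the PNX arrays between the other groups. It was 1.84 ± 0.27 log2 above SHAM (adjusted p = 0.0127). Epha4 had 7.78 and 7.86 log2 in bright PNX-dnFGFR, 6.82 and 6.44 log2 in bright PNX and 6.66 and 6.86 log2 in bright SHAM, 1.06 ± 0.17 log2 above SHAM (adjusted p = 0.0148). Sema6a had 8.52 and 8.49 log2 in bright PNX-dnFGFR, 7.47 and 7.48 log2 in bright PNX and 7.63 and 7.59 log2 in bright SHAM, 0.90 ± 0.20 log2 above SHAM (adjusted p = 0.0413). For Epha4 and Sema6a, as for Sema4a, PNX and SHAM arrays lay close together and PNX-dnFGFR alone was high.

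The 3 receptors moved down. Nrp1 had 9.36 and 8.90 log2 in bright PNX-dnFGFR, 9.86 and 10.18 log2 in bright PNX and 10.21 and 10.21 log2 in bright SHAM, a fall of 1.08 ± 0.20 log2 from SHAM (adjusted p = 0.0241). Nrp2 had 7.53 and 6.59 log2 in bright PNX-dnFGFR, 7.93 and 8.12 log2 in bright PNX and 8.56 and 8.10 log2 in bright SHAM, lower by 1.27 ± 0.28 log2 (adjusted p = 0.0366). Plxnd1 had 6.04 and 6.06 log2 in bright PNX-dnFGFR, 6.25 and 6.25 log2 in bright PNX and 6.73 and 6.56 log2 in bright SHAM, lower by 0.59 ± 0.13 log2 (adjusted p = 0.0412). No array of PNX-dnFGFR overlapped SHAM in the 7 called genes, as in 59.6% of all genes. Nrp1, Nrp2 and Plxnd1 are also expressed by endothelial cells, and the mean of the 16 endothelial markers was 5.29 and 5.22 log2 in bright PNX-dnFGFR, against 5.65 and 5.71 log2 in bright SHAM; 0 of the 12 tested were called, and their part in the fall was not tested. Of 4 tested glia and neuron markers 2 were higher, Gap43 by 1.70 log2 and Tubb3 by 1.13 log2, where 2.6% of all genes were called higher.

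**Figure D3:**
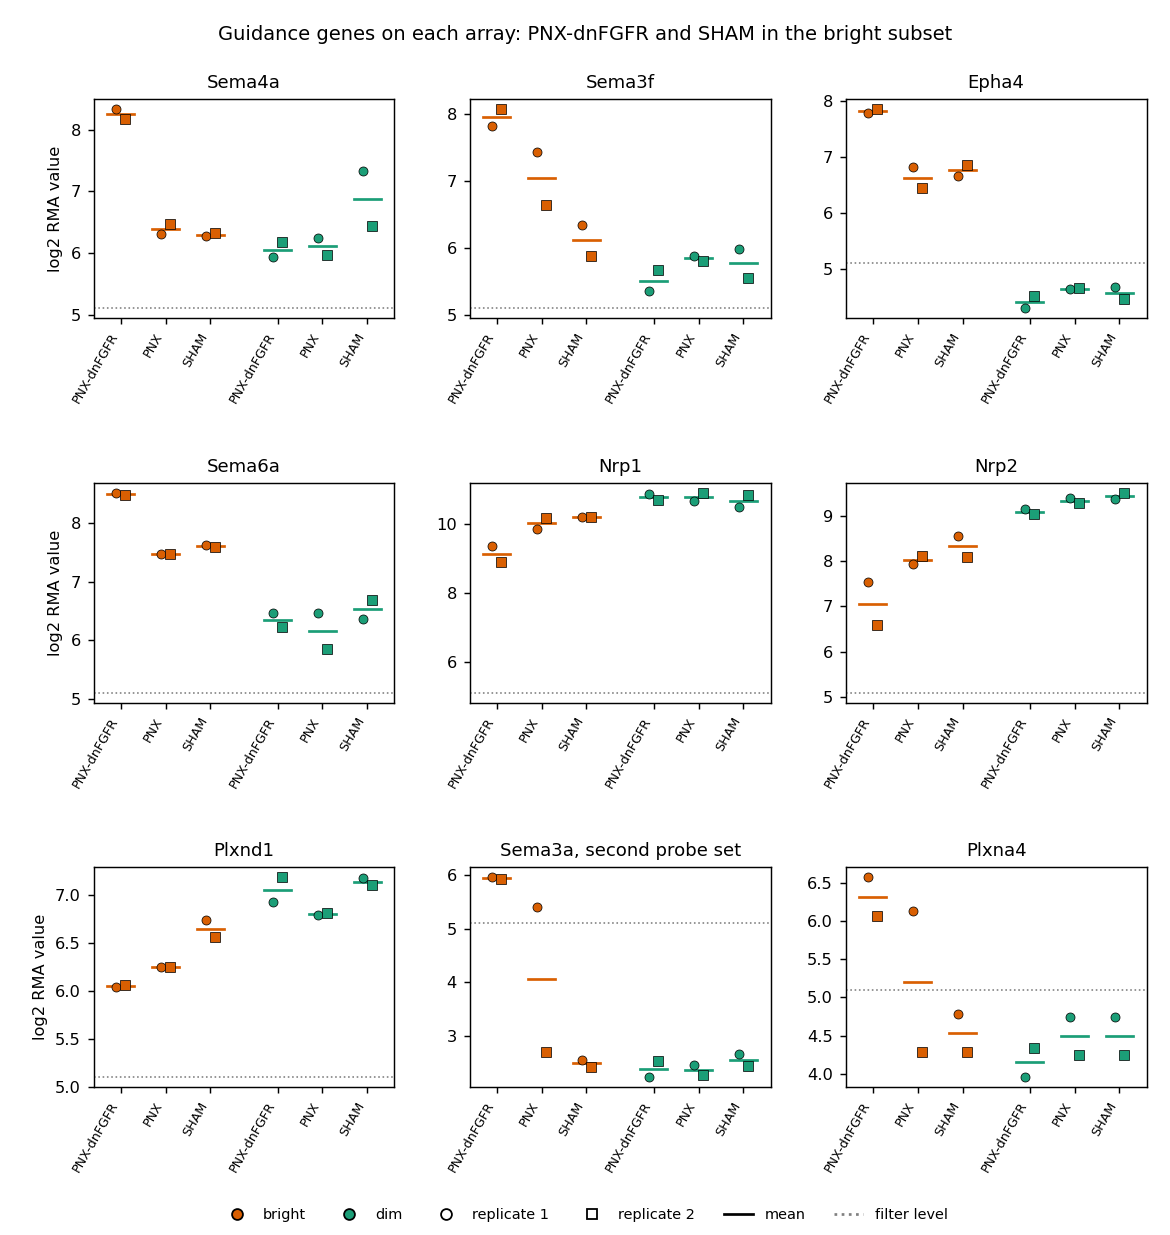
Log2 RMA value on each array (circles replicate 1, squares replicate 2, short lines group means, dotted line filter level), bright groups in orange left of dim groups in green, for the 7 genes called between bright PNX-dnFGFR and SHAM, the second probe set of Sema3a, and Plxna4. Bright PNX-dnFGFR is high for Sema4a, Sema3f, Epha4 and Sema6a, and bright PNX replicate 1 (circle) stands apart from replicate 2 (square) for Sema3a and Plxna4.

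These 7 calls rest on few arrays. There were 0 calls without bright SHAM replicate 2, 1 without bright PNX-dnFGFR replicate 2 and 2 without bright SHAM replicate 1, whereas leaving out either bright PNX array gave 14. Sema4a was called in 11 of the 12 fits that left out 1 array, Sema3f in 10, Nrp1 in 9, Epha4 in 8, Sema6a in 6, Plxnd1 in 4 and Nrp2 in 3. All kept their sign. With the replicate number as a block Plxnd1 was not called (adjusted p = 0.0504), and in a fit of just these 4 arrays neither Plxnd1 (0.0697) nor Nrp2 (0.105) was. Further probe sets of the called genes kept the sign. In separate limma tests those of Nrp1 (adjusted p = 0.0428 and 0.0366), Sema6a (0.0356) and 1 of Epha4 (0.0246) passed. Those of Nrp2 (0.0756) and another of Epha4 (0.0993) did not, and that of Sema3f, below the filter, rose 0.538 log2. Plxna4 (0.027), Sema4b (0.0462) and Sema6d (0.0427), not called here, had a further probe set that passed, each higher in PNX-dnFGFR.

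In dim cells 0 guidance genes differed between PNX-dnFGFR and SHAM (0.0181% of all genes; 4 had an unadjusted p below 0.05 in limma, against 9.52% of all genes). The 3 with the smallest p, none of which passed, were Robo2 (0.83 ± 0.21 log2), Sema4a (-0.82 ± 0.26 log2) and Robo1 (0.62 ± 0.26 log2). The effect of PNX-dnFGFR against SHAM was tested for a difference between the subsets, and 1 gene passed (0.126% of all genes). Sema4a was 2.79 ± 0.37 log2 further up in bright than in dim (adjusted p = 0.0426). The call was lost in 8 of the 12 fits that left out 1 array. It was also lost with condition and number as a fixed block (adjusted p = 0.0725) and with probe sets tested separately (0.0547). In dim it had 5.93 and 6.18 log2 in PNX-dnFGFR, 6.25 and 5.97 log2 in PNX and 7.33 and 6.43 log2 in SHAM. The high dim SHAM array, replicate 1, also had the highest mean of the macrophage and dendritic markers (7.43 log2, against 6.21 to 6.78 log2 on the other dim arrays), and without it the difference was 2.33 log2 (adjusted p = 0.0464). For Sema3f (2.10 ± 0.39 log2, adjusted p = 0.0925) and Epha4 (1.24 ± 0.24 log2, adjusted p = 0.0927) the difference did not pass.

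**Figure D4:**
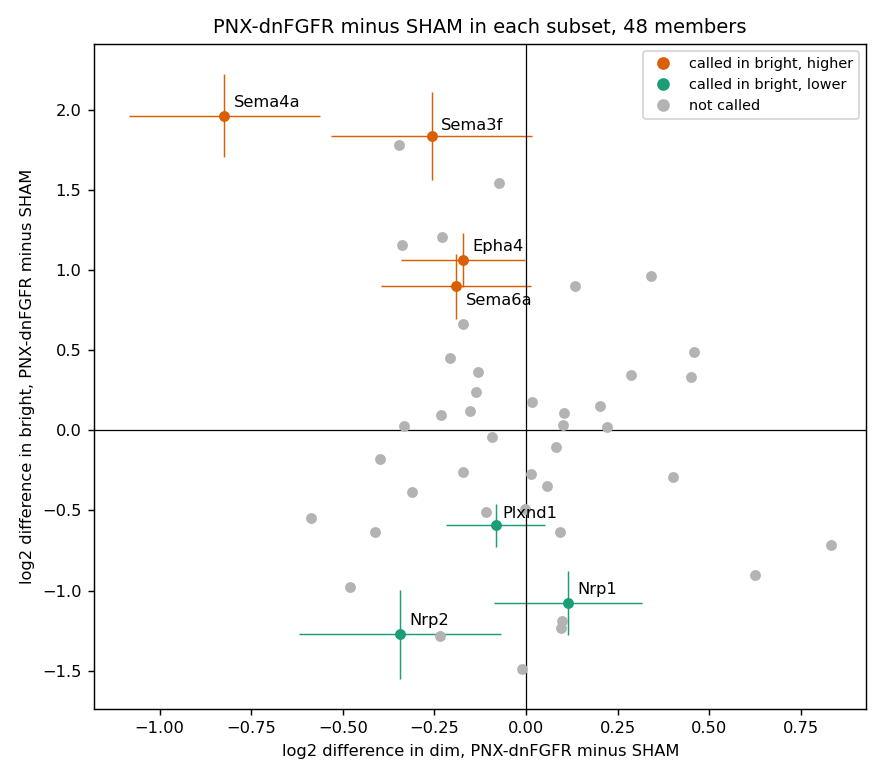
Log2 difference of PNX-dnFGFR minus SHAM in dim cells (x axis) and in bright cells (y axis) for the 48 tested guidance genes. Colours and names mark the 7 genes called in bright, with standard errors. Sema4a lies at 1.96 in bright and -0.82 in dim, and no gene was called in dim.

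Pneumonectomy alone gave no call among the guidance genes. In bright cells 0 of 48 differed between PNX and SHAM (0.00903% of all genes; 5 had an unadjusted p below 0.05 in limma, against 8.24%), and the 3 with the smallest p were Sema3f (0.92 ± 0.27 log2), Plxnd1 (-0.39 ± 0.13 log2) and Efna5 (0.66 ± 0.24 log2). In dim cells 0 differed (0.0452% of all genes; 7 had an unadjusted p below 0.05, against 12.2%). Robo2 came nearest, with 6.32 and 6.48 log2 in dim PNX, against 5.12 and 5.07 log2 in dim SHAM, a non-overlapping difference of 1.30 ± 0.21 log2 (adjusted p = 0.0856). Next came Sema4a (-0.77 ± 0.26 log2) and Ephb4 (0.35 ± 0.14 log2). In the mean of both subsets 0 differed (0.144% of all genes; 8 unadjusted, against 16.1%), with Robo2 (0.82 log2), Plxnd1 (-0.36 log2) and Unc5b (0.76 log2) nearest. The fit takes the bright and dim arrays as unrelated samples, which the labels do not settle.

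Nor did any guidance gene pass between PNX-dnFGFR and PNX in limma. In bright cells 0 were called (0.00903% of all genes; 18 had an unadjusted p below 0.05, against 12.6%), with Sema4a (1.86 ± 0.26 log2, adjusted p = 0.0651), Epha4 (1.19 ± 0.17 log2, adjusted p = 0.0651) and Sema6a (1.03 ± 0.20 log2) nearest. Without replicate 1 of bright PNX 10 were called. In dim 0 were called (0% of all genes; 3 unadjusted, against 7.79%), Sema4g, Unc5b and Efna2 having the smallest p, and 0 in the mean of both (0% of all genes; 13 unadjusted, against 12.5%), where Robo2 (-0.76 log2), Sema4a (0.91 log2) and Sema6a (0.61 log2) came nearest. The other 2 differences of effects between subsets, for PNX against SHAM (0% of all genes; 3 unadjusted, against 4.47%) and for PNX-dnFGFR against PNX (0% of all genes; 11 unadjusted, against 8.21%), gave 0 calls. Robo2, Efna5 and Sema4a had the smallest p in the PNX difference, and Epha4, Sema4a and Sema3f in the other.

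The bright PNX replicates were far apart for some guidance genes. In 6 of the 48 they differed by over 1 log2 (Epha3, Plxna2, Plxna4, Plxnc1, Sema3g and Sema4b), against 1 gene in bright PNX-dnFGFR, 0 in bright SHAM, 0 in dim PNX-dnFGFR, 3 in dim PNX and 1 in dim SHAM. Over all genes the share was 3.95% in bright PNX and 1.71% to 3.02% in the other groups. Plxna4 had 6.57 and 6.06 log2 in bright PNX-dnFGFR, 6.13 and 4.28 log2 in bright PNX and 4.78 and 4.28 log2 in bright SHAM. Sema4b had 9.38 and 9.27 log2 in bright PNX-dnFGFR, 9.04 and 7.54 log2 in bright PNX and 7.94 and 7.62 log2 in bright SHAM. In both, replicate 1 of PNX lay near PNX-dnFGFR and replicate 2 near SHAM. Of 25 genes whose bright PNX-dnFGFR and SHAM means were over 0.5 log2 apart, replicate 1 was nearer PNX-dnFGFR in 11 and replicate 2 in 2. Of all 2430 such genes it was replicate 1 in 64.2% and replicate 2 in 26.9%. The mesothelial marker mean differed between the same arrays, with 8.12 log2 on replicate 1 and 6.01 log2 on replicate 2 of bright PNX, 7.18 and 7.67 log2 in bright PNX-dnFGFR and 7.13 and 6.62 log2 in bright SHAM. Its part in the split was not tested.

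Genes that work beside these ligands and receptors were read from lists chosen with earlier results of these data known. Of 26 tested co-receptors and related ligands outside the rule 9 were higher and 7 lower in bright (61.5%). Flrt2, a ligand of Unc5 receptors, was 4.81 ± 0.26 log2 higher (9.61 to 10.48 in bright, 4.05 to 6.83 in dim) and Chl1, a neuropilin-associated adhesion molecule, 4.06 ± 0.41 log2 higher. Vegfa, which binds neuropilins, was 1.64 ± 0.13 log2 lower, and the netrin receptors Neo1 and Dcc were lower by 0.34 ± 0.12 and 0.22 ± 0.08 log2. In bright PNX-dnFGFR against SHAM 2 of the 26 were called, Chl1 (2.94 log2) and Draxin, a netrin-binding ligand (1.45 log2), 7.69% against 5.2% of all genes. Of 45 tested mediators of guidance receptor signalling 14 were higher and 7 lower in bright (46.7%, near the 47.8% of all genes). Those with the smallest adjusted p were the slit-robo GTPase-activating proteins Srgap1 (1.37 log2) and Srgap3 (2.91 log2), higher in bright, and the actin-binding Ablim3 (-1.69 log2) and the exchange factor Vav2 (-1.18 log2), lower in bright. Only 1 mediator was called in bright PNX-dnFGFR against SHAM, Ablim1 (-1.09 log2), 2.22% of the list.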

How the data were processed

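Log2 expression values on Affymetrix arrays were made with RMA by the authors, per the submitters' processing notes; the RMA version is not given in the sources used here. The deposited log2 values were used as they are. RNA was amplified over 25 cycles before hybridization, per the labels' protocols, which can distort levels. Of 45141 probe sets 28898 named 1 gene, 551 several and 15588 none, and the highest-mean probe set stood for each gene. Genes over 5.101 log2 on at least 2 of 12 arrays were tested: 11073, with 6024 below. limma 3.58.1 in R 4.3.3 fitted 1 mean per group (6 residual and 3.31 prior degrees of freedom, median residual SD 0.199 log2), with Benjamini-Hochberg adjustment over all genes tested and a threshold of 0.05. Held values are levels raised to the filter level where lower. The number of arrays limits the precision.

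On simulated data with 200 of 11073 genes changed by 1 log2, 92% were recovered in bright against dim (mean of 3 conditions), 56% in bright PNX-dnFGFR against SHAM and 1% in the difference of that effect between subsets.

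The members, lists and tests were chosen with earlier results of these data known. Genes were named by rule: up to 12 called higher and 12 lower per bright and dim comparison, every called member between conditions or, where none passed, the 3 with the smallest unadjusted p, and the highest-mean member of each family. The labels give no scan date or batch. Alternatives changed the filter, probe set choice, normalization, variance trend, arrays fitted and replicate block, and left out each array. Probe sets tested separately were added after the data were seen. Promoter sequences are from RefSeq.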

Additional observations from a re-analysis of the deposited data

Results flagged for a closer look

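Sema4a was picked out because its effect differed between the subsets in a test of that difference: PNX-dnFGFR against SHAM was 2.79 log2 (2.7863) further up in bright than in dim cells. A second probe set of Sema3a, which did not stand for the gene, was picked out because it carried a signal outside the main measurement: it was 3.45 log2 (3.4523) higher in bright PNX-dnFGFR than in bright SHAM. It had 5.96 and 5.92 log2 in bright PNX-dnFGFR, 5.40 and 2.70 log2 in bright PNX, 2.55 and 2.42 log2 in bright SHAM, and 2.23 to 2.66 log2 in dim cells (adjusted p = 0.0226 with every probe set tested separately by limma, an alternative chosen after seeing the data). The probe set that stood for Sema3a lay below the filter on all 12 arrays, with 3.45 log2 on its lowest and 5.00 log2 on its highest. Groups of 2 arrays are too small to look for single outlying samples.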

How the results depend on the processing

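No gene result reversed. Of 3084 values of 143 gene results under the alternatives, 2867 kept their direction and side of the threshold, 200 lost the call and 17 gained one. Counts of called guidance genes moved as follows, and the cause was not tested. PNX-dnFGFR against SHAM in bright (7) gave 12 with a variance trend, 12 with only the groups compared and 12 with values held at the filter. PNX-dnFGFR against PNX in bright (0) gave 2 with a stricter filter, 2 with a variance trend and 2 with held values. PNX against SHAM in dim (0) gave 1 with held values. The difference of PNX-dnFGFR against SHAM between subsets (1) gave 0 with probe sets tested separately.

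Leaving out each array in turn gave 29 to 33 for bright against dim (mean), 25 to 32 in PNX-dnFGFR, 14 to 24 in PNX and 14 to 23 in SHAM. It gave 0 to 14 for PNX-dnFGFR against SHAM in bright, 0 to 10 for PNX-dnFGFR against PNX in bright and 0 to 2 in the mean of both subsets. PNX against SHAM gave 0 to 1 in dim and 0 to 1 in the mean. The differences of effects between subsets gave 0 to 5 for PNX-dnFGFR against SHAM, where Sema4a was called in 4 of the 12 fits, and 0 to 2 for PNX-dnFGFR against PNX. A lone array left in a group is assumed to vary like the other groups.

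Replicate numbers were not taken as pairs, since not every correlation of replicate differences was over 0.1: those of bright and dim cells of a condition were 0.128 (PNX-dnFGFR), 0.003 (PNX) and 0.005 (SHAM), those between bright groups 0.347 (PNX-dnFGFR and SHAM), 0.288 (PNX and SHAM) and 0.065 (PNX-dnFGFR and PNX). With the number as a replicate block 32 guidance genes differed between bright and dim (mean) and 8 between PNX-dnFGFR and SHAM in bright, with Plxna3 (adjusted p = 0.0524) and Plxnd1 (0.0504) losing their calls. With condition and number as a fixed block, which pairs bright and dim arrays, 34 differed between bright and dim (mean). In that fit the subset difference gave 0 calls (Sema4a, adjusted p = 0.0725). With condition and number as a random block (correlation 0.015) 7 differed between PNX-dnFGFR and SHAM in bright.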
